A study of Mus musculus with 12 samples.

Results

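The microRNAs described here are the miR-99/100 and miR-125 families, whose genes sit beside let-7 genes at 3 places in the mouse genome. They were taken by name: every table entry for mir-99a, mir-99b, mir-100, mir-125a or mir-125b, mature arms and precursors together, which gave 15 of 1053 entries. These were 9 mature arms and 6 precursors. The 5 main arms, mmu-miR-99a-5p, mmu-miR-99b-5p, mmu-miR-100-5p, mmu-miR-125a-5p and mmu-miR-125b-5p, carry most of their reads and are the subject of most of what follows.

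Small RNA was counted in 12 libraries of sorted tdTomato+ mouse embryonic cells, 3 per stage, to follow miRNAs as endoderm gives rise to pancreatic progenitors. Libraries of embryonic day (E) 8.5 held endoderm of the whole embryo, labelled by Foxa2-CreER, a tamoxifen-inducible Cre driven from Foxa2. Those of E9.5 to E11.5 held cells labelled by Pdx1-Cre, which marks the early pancreas and adjoining gut, dissected from the trunk. All carried Cre and a tdTomato reporter, and per the study's methods the crosses used animals with 1 mir-302 allele replaced by eGFP, so the mir-302 genotype of the embryos in each library is unknown here. Per the study's methods, pregnant dams were injected with tamoxifen to label the endoderm, and no such treatment is described for the Pdx1-Cre crosses. The step from E8.5 to E9.5 changed the Cre driver, the tamoxifen treatment, the dissected region and the stage together, and these cannot be told apart. Library names also carried a number shared within a stage and different between stages, so a batch that it may mark cannot be told apart from stage. Nothing said whether libraries of a stage came from separate litters, so the p-values measure the spread between these samples, which may be technical.

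Total counts were 386094 to 594224 (E8.5), 53996 to 80075 (E9.5), 133435 to 267978 (E10.5) and 417743 to 1103383 (E11.5). The E9.5 libraries were the shallowest, and 3 counts there stood for 32.0 to 75.9 CPM (counts scaled to a common library total), against 2.74 to 25.8 CPM in the other 9 libraries. The epithelial marker miRNAs (the miR-200 family, miR-141 and miR-375) were all detected in every stage, and their summed level had a mean of 27800, 42900, 87500 and 84600 CPM from the first stage to the last. The liver miRNA miR-122-5p stood at 516 CPM at E8.5 and at 64800, 91500 and 52100 CPM at the later stages. Summed muscle markers had a mean of 16100 and 12800 CPM in the first pair of stages and of 1510 and 947 CPM in the second pair.

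miRNAs are cut from hairpins in longer transcripts, and the mature arm pairs with target mRNAs mainly through its seed, bases 2 to 8. let-7 and the worm lin-4 miRNA, the counterpart of miR-125, are the classic timing miRNAs: in the worm they time developmental steps, and in animals at large let-7 and miR-125 are linked to differentiation. miR-99 and miR-100 are best known for targeting mTOR, a kinase that couples nutrients to growth. Arms cut from 1 transcript need not reach equal levels, since each hairpin is processed and each mature arm is degraded on its own.

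The mature sequences show which members can share targets and which are nearly the same molecule. Each is given 5′ to 3′ with the seed in capitals, from RefSeq on GRCm38.p6.

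mmu-miR-99a-5p: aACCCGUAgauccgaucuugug

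mmu-miR-99b-5p: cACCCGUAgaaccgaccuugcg

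mmu-miR-100-5p: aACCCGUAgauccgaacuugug

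mmu-miR-125a-5p: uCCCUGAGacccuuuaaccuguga

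mmu-miR-125b-5p: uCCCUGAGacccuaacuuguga

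mmu-let-7a-5p: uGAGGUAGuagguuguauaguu

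mmu-let-7c-5p: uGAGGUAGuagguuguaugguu

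mmu-let-7e-5p: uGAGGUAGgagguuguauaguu

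The 5 members thus carry 2 seeds. ACCCGUA is shared by miR-99a-5p, miR-99b-5p and miR-100-5p, and CCCUGAG by miR-125a-5p and miR-125b-5p, whereas the let-7 arms carry GAGGUAG. With positions counted from 1 at the 5′ end, miR-100-5p and miR-99a-5p differ at a single base, A16U, so a read with a sequencing error there could be counted for the other. miR-99a-5p and miR-99b-5p differ at 4 bases, A1C, U11A, U16C and U21C. miR-125a-5p, with 24 bases, and miR-125b-5p, with 22, share their first 13 bases. Among the let-7 arms a single base separates let-7a-5p from let-7c-5p (A19G) and from let-7e-5p (U9G).

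The 3 loci lie on the forward strand (GRCm38, GENCODE annotation). On chromosome 17 (17830188-17830879), Mir99b, Mirlet7e and Mir125a fill 692 bp within the protein-coding gene Spaca6, and Mir125a overlaps one of its exons. On chromosome 16 (77598936-77646343), Mir99a, Mirlet7c-1 and Mir125b-2 span 47408 bp within the non-coding host gene Mir99ahg. On chromosome 9 (41531425-41582002), Mir100, Mirlet7a-2 and Mir125b-1 span 50578 bp within the non-coding gene 3110039I08Rik. Counts of miR-99a-5p, miR-99b-5p, miR-100-5p, miR-125a-5p and let-7e-5p each come from 1 locus. miR-125b-5p is cut at both the chromosome 9 and the chromosome 16 locus, let-7a-5p also from Mirlet7a-1 on chromosome 13, and let-7c-5p also from Mirlet7c-2 on chromosome 15, so these counts cannot be assigned to a single locus.

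**Figure D1:**
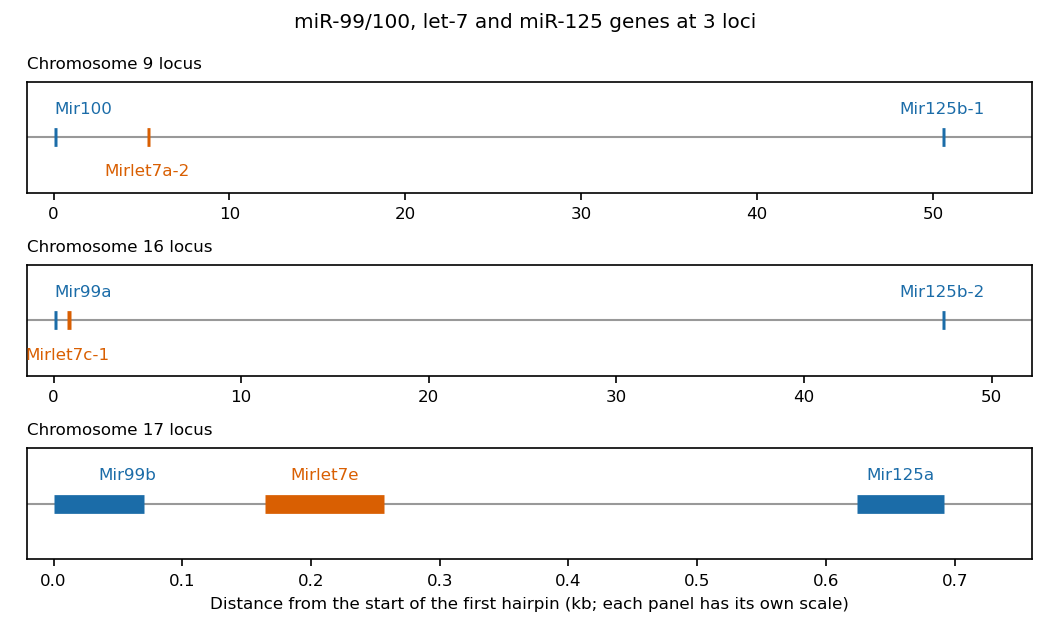
Position of the miRNA hairpins at the 3 loci, as distance in kb from the start of the first hairpin; blue marks miR-99/100 and miR-125 genes and orange marks let-7 genes, and each panel has its own scale. The chromosome 17 hairpins lie within 692 bp, while at the other loci the miR-125b gene lies far from its neighbours.

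The chromosome 17 pair were the abundant members, and both were highest at E11.5. Levels are CPM scaled by the TMM factors of edgeR, changes are log2 fold changes with their standard error (SE) from 1 edgeR quasi-likelihood fit over all 12 libraries, and an entry was called when its p, adjusted by Benjamini-Hochberg over the 571 entries tested, was under 0.05. miR-99b-5p stood at 4166, 3431 and 2566 CPM at E8.5 (replicates 1 to 3), 4320, 3086 and 4147 at E9.5, 9969, 5626 and 9016 at E10.5, and 12414, 18945 and 18272 at E11.5. The E8.5 and E9.5 libraries covered the same range, every E10.5 library lay above them, and every E11.5 library lay above those of E10.5. By mean level it was the 40th, 48th, 19th and 11th of 633 mature arms at the 4 stages. It was 2.29 ± 0.41 (SE) higher at E11.5 than at E8.5 on the log2 scale (adjusted p = 4.22e-04, edgeR) and 2.10 ± 0.40 higher than at E9.5 (adjusted p = 0.00198, edgeR). The single steps were smaller, with 0.18 from E8.5 to E9.5, 1.09 from E9.5 to E10.5 and 1.01 from E10.5 to E11.5, and none of them was called (adjusted p = 0.777, 0.124 and 0.368).

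miR-125a-5p stood at 3495, 3242 and 2122 CPM at E8.5, 4092, 2680 and 6853 at E9.5, 7480, 2474 and 4449 at E10.5, and 13499, 15463 and 16852 at E11.5. The first 3 stages overlapped, and the lowest E11.5 library lay above every library of the other stages. Its log2 fold change was 2.37 ± 0.48 (SE) from E8.5 to E11.5 (adjusted p = 0.00146, edgeR) and 1.75 ± 0.47 from E9.5 to E11.5 (adjusted p = 0.0299, edgeR). From E10.5 to E11.5 it was 1.67 ± 0.47, which missed the threshold (adjusted p = 0.202, edgeR), and the earlier steps of 0.62 and 0.08 were not called either (adjusted p = 0.426 and 0.929). Unlike miR-99b-5p, whose 3 E10.5 libraries lay above its E9.5 libraries, miR-125a-5p did not separate these stages, but the difference between both members was not tested.

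The E11.5 against E8.5 call of both held in every alternative run and without any single library, with log2 fold changes of 1.76 to 2.59 for miR-99b-5p and 1.86 to 2.59 for miR-125a-5p. The E11.5 against E9.5 calls were less stable. DESeq2 called miR-99b-5p (1.35, adjusted p = 0.00973) but not miR-125a-5p (0.95, adjusted p = 0.301). Neither was called by limma voom (2.24, adjusted p = 0.0683, and 2.01, adjusted p = 0.0718). With RLE scaling, which moved the median of all entries in this comparison from 0.66 to -0.05, the change was 1.35 for miR-99b-5p (adjusted p = 0.0594) and 0.95 for miR-125a-5p (adjusted p = 0.338). Leaving out 1 library kept the miR-99b-5p call each time. The miR-125a-5p call was lost without E8.5 replicate 2 (1.54, adjusted p = 0.0787), E9.5 replicate 2 (1.30, adjusted p = 0.171), E10.5 replicate 1 (1.55, adjusted p = 0.0571), E11.5 replicate 2 (1.74, adjusted p = 0.0986) or E11.5 replicate 3 (1.76, adjusted p = 0.0995), all by edgeR.

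let-7e-5p, the arm between these members on chromosome 17, was called at an earlier step. It stood at 944, 1873 and 902 CPM at E8.5, 5749, 3364 and 9129 at E9.5, 5508, 6313 and 6168 at E10.5, and 19180, 11256 and 14056 at E11.5. All E9.5 libraries already lay above all E8.5 libraries, and the change of 2.29 ± 0.46 (SE) on the log2 scale was called (adjusted p = 0.00208, edgeR), a step at which neither of its partners was called. From E9.5 to E10.5 it changed by -0.02 (adjusted p = 0.992).

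**Figure D2:**
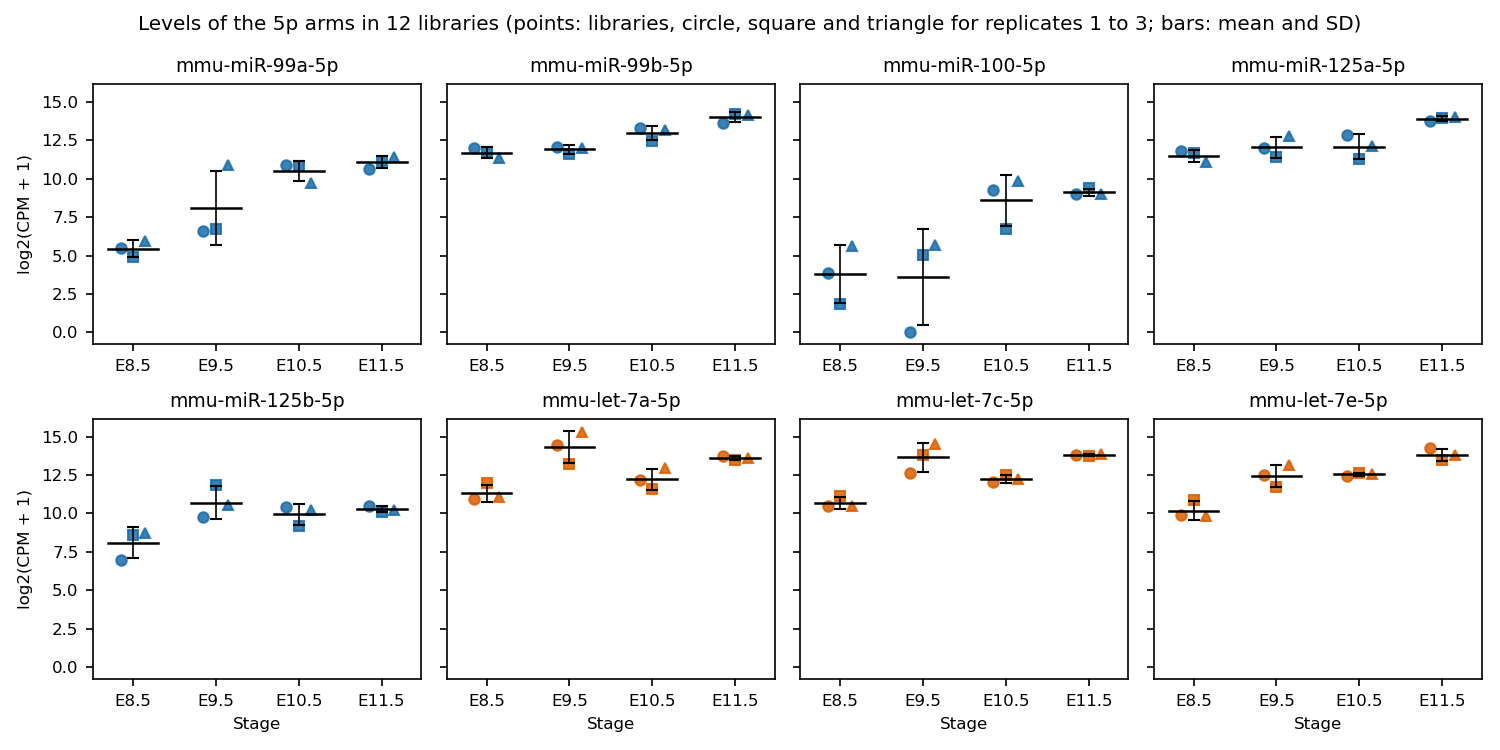
Level of the 5 main arms (blue) and of the let-7 arms of the same loci (orange) as log2(CPM + 1) in each library by stage; points are libraries and bars show the mean and SD of 3. miR-99b-5p and miR-125a-5p were highest at E11.5, miR-99a-5p and miR-100-5p were low at E8.5, and let-7a-5p and let-7c-5p were highest or near highest at E9.5.

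Taking the reads of the chromosome 17 arms alone removes the scaling of libraries. Of the reads of miR-99b-5p, let-7e-5p and miR-125a-5p together, let-7e-5p made up 16.3% ± 5.45 (SD, n = 3), 40.9% ± 4.31, 33.1% ± 10.0 and 31.9% ± 9.40 over the 4 stages in order. miR-99b-5p made up 44.8% ± 4.26, 28.3% ± 6.87, 42.8% ± 3.49 and 35.4% ± 7.17, and miR-125a-5p 38.8% ± 1.53, 30.8% ± 2.81, 24.2% ± 7.80 and 32.7% ± 2.43. let-7e-5p was thus the smallest of the 3 in every E8.5 library and the largest in every E9.5 library. How well the library chemistry captures each miRNA was not measured, so these shares are of reads, and what can be compared is the same share between libraries.

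**Figure D3:**
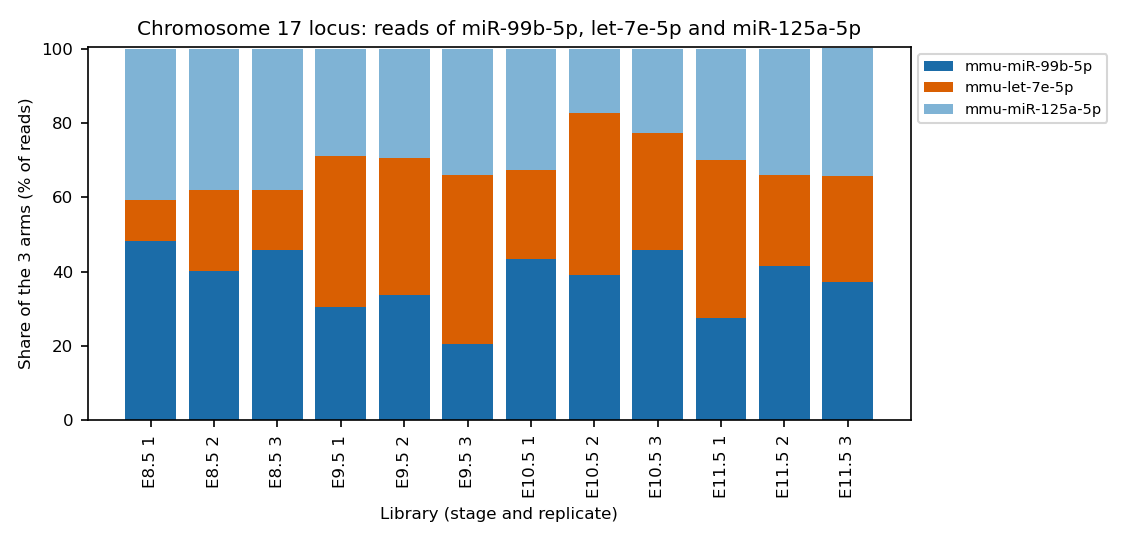
Share of each arm among the reads of miR-99b-5p, let-7e-5p and miR-125a-5p in each of the 12 libraries, in percent of their summed reads. The let-7e-5p share was 11.0% to 21.9% at E8.5 and 36.8% to 45.4% at E9.5.

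Between stages, the ratio of partner to let-7e-5p within a library differed for both members. There were 441, 183 and 284 reads of miR-99b-5p per 100 reads of let-7e-5p in the E8.5 libraries, 75.1, 91.7 and 45.4 at E9.5, 181, 89.1 and 146 at E10.5, and 64.7, 168 and 130 at E11.5. On the log2 scale the means were 1.51 ± 0.63 (SD), -0.56 ± 0.52, 0.41 ± 0.52 and 0.17 ± 0.71 (exact permutation test over libraries, 4 stages, p = 0.0165, adjusted over the 5 ratios tested 0.0225). For miR-125a-5p there were 370, 173 and 235 reads per 100 of let-7e-5p at E8.5, 71.2, 79.7 and 75.1 at E9.5, 136, 39.2 and 72.1 at E10.5, and 70.4, 137 and 120 at E11.5. Its log2 means were 1.30 ± 0.55 (SD), -0.41 ± 0.08, -0.46 ± 0.90 and 0.07 ± 0.51 (exact permutation p = 0.018, adjusted 0.0225). For both, every E8.5 library lay above every E9.5 library.

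These differences rested on the E8.5 libraries. Among the Pdx1-Cre stages alone the exact permutation p was 0.214 for miR-99b-5p and 0.543 for miR-125a-5p, so a difference within the Pdx1-Cre lineage was not shown. The adjusted p also passed 0.05 when a single library was left out. For miR-99b-5p, the exact permutation test gave adjusted p = 0.113 without E8.5 replicate 1, 0.0542 without E8.5 replicate 3 and 0.0624 without E9.5 replicate 3. For miR-125a-5p, the exact values without the same libraries were 0.113, 0.0542 and 0.0581.

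On chromosome 16, miR-99a-5p went from a trace to a moderate level. It stood at 45.0, 28.4 and 60.7 CPM at E8.5 (26, 11 and 42 counts), 97.4, 107 and 1897 at E9.5 (6, 10 and 75 counts), 1861, 1821 and 853 at E10.5, and 1614, 2282 and 2688 at E11.5. All later libraries lay above all E8.5 libraries, and 1 of the 3 E9.5 libraries, replicate 3, lay at the E10.5 level while the other two lay near E8.5. By mean level it moved from the 340th mature arm at E8.5 to the 62nd at E11.5. It was 5.60 ± 1.16 (SE) higher at E11.5 than at E8.5 on the log2 scale (adjusted p = 0.00165, edgeR), a call that held in every alternative that tested it and without any single library.

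When it rose within this window was not settled by these libraries. From E8.5 to E9.5 the log2 fold change of miR-99a-5p was 3.94 ± 1.08 (SE) and was called (adjusted p = 0.0282, edgeR), but without E9.5 replicate 3 it was 1.19 (adjusted p = 0.459), and the call was also lost without E8.5 replicate 1 (3.92, adjusted p = 0.0977), replicate 2 (3.97, adjusted p = 0.112) or replicate 3 (4.15, adjusted p = 0.134). From E9.5 to E10.5 it was 1.13 ± 0.97 and not called (adjusted p = 0.505, edgeR), and without E9.5 replicate 3 it was 3.88 and called (adjusted p = 0.0194). From E9.5 to E11.5 it was 1.67 ± 0.98 (adjusted p = 0.379, edgeR), and 4.44 without that library (adjusted p = 0.00506). From E10.5 to E11.5 it was 0.54 ± 0.95 (adjusted p = 0.901, edgeR).

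let-7c-5p, the neighbour of miR-99a-5p, was about an order of magnitude or more above it in the early libraries. It stood at 1411, 2284 and 1436 CPM at E8.5, 6366, 14150 and 23466 at E9.5, 4149, 5875 and 4804 at E10.5, and 14461, 13914 and 15153 at E11.5. It rose by 3.10 ± 0.45 (SE) on the log2 scale from E8.5 to E9.5 (adjusted p = 5.61e-05, edgeR) and fell by 1.57 ± 0.43 to E10.5 (adjusted p = 0.0337, edgeR), where miR-99a-5p was not called. There were 3.19, 1.24 and 4.23 reads of miR-99a-5p per 100 of let-7c-5p at E8.5, 1.53, 0.755 and 8.08 at E9.5, 44.9, 31.0 and 17.8 at E10.5, and 11.2, 16.4 and 17.7 at E11.5. Every E10.5 and E11.5 library lay above every E8.5 and E9.5 library. The log2 means were -5.25 ± 0.90 (SD), -5.51 ± 1.72, -1.78 ± 0.67 and -2.76 ± 0.36 (exact permutation p = 0.00851, adjusted over the 5 ratios 0.0218). Among the Pdx1-Cre stages alone the exact permutation p was 0.00357, the smallest that 9 libraries allow. Without E8.5 replicate 1, the adjusted value of the 4-stage exact test was 0.057.

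On chromosome 9, miR-100-5p was close to the detection limit at the first stages. It was counted 8, 1 and 34 times at E8.5 and 0, 3 and 2 times at E9.5, against 159, 12 and 235 times at E10.5 and 222, 718 and 418 times at E11.5. In CPM these were 13.8, 2.58 and 49.2, then 0, 32.0 and 50.6, then 605, 103 and 916, then 506, 657 and 503. Every library of the later pair of stages lay above every library of the earlier pair, and the lowest of the later libraries, E10.5 replicate 2, stood at 12 counts. The E9.5 counts were at or under 3 in each library, so a level of up to 32.0 to 75.9 CPM would not have been told from 0 there.

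None of the changes of miR-100-5p was called by edgeR. The largest, from E8.5 to E11.5, was 4.63 ± 1.52 (SE) on the log2 scale, with an adjusted p of 0.0501 (edgeR), and DESeq2 and limma voom called it (4.48, adjusted p = 0.001, and 5.23, adjusted p = 0.00377). Over the alternatives its adjusted p ran from 0.001 to 0.0865. It was called without E9.5 replicate 1 (4.60, adjusted p = 0.0259), E9.5 replicate 2 (4.69, adjusted p = 0.038), E9.5 replicate 3 (4.61, adjusted p = 0.0365) or E10.5 replicate 2 (4.59, adjusted p = 0.0485). The change from E9.5 to E10.5 was 4.34 ± 1.58 (adjusted p = 0.129, edgeR) and that from E9.5 to E11.5 was 4.37 ± 1.58 (adjusted p = 0.126, edgeR). DESeq2 called both (3.76, adjusted p = 0.0296, and 3.62, adjusted p = 0.0477), and limma voom called neither (adjusted p = 0.354 and 0.116). From E8.5 to E9.5 and from E10.5 to E11.5 the values were 0.26 ± 1.46 and 0.03 ± 1.30, and their sign changed with the processing.

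The let-7 arm of this locus, let-7a-5p, stood at 1939, 3955 and 2141 CPM at E8.5, 22654, 9547 and 39574 at E9.5, 4533, 3041 and 7964 at E10.5, and 13417, 11596 and 12725 at E11.5. It rose by 3.16 ± 0.49 (SE) on the log2 scale to E9.5 (adjusted p = 8.46e-05, edgeR) and fell by 2.21 ± 0.47 to E10.5 (adjusted p = 0.00824, edgeR). The log2 ratio, with 0.5 counts added to each arm, was -7.04, -10.0 and -5.42 at E8.5, -11.45, -8.00 and -9.29 at E9.5, -2.90, -4.83 and -3.12 at E10.5, and -4.73, -4.14 and -4.66 at E11.5. Every library of E10.5 or E11.5 again lay above every earlier one, while E8.5 overlapped E9.5 and E10.5 overlapped E11.5, and the value of -11.45 rests on a count of 0. The means were -7.49 ± 2.32 (SD), -9.58 ± 1.74, -3.61 ± 1.05 and -4.51 ± 0.32 (exact permutation p = 0.0087, adjusted 0.0218), and the exact p among the Pdx1-Cre stages alone was 0.0143. The adjusted exact p was 0.057 without E8.5 replicate 1 and 0.0581 without E9.5 replicate 3.

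miR-125b-5p, the arm cut from both of the long loci, showed neither pattern. It stood at 123, 382 and 432 CPM at E8.5, 861, 3663 and 1492 at E9.5, 1351, 575 and 1208 at E10.5, and 1443, 1116 and 1206 at E11.5. All later libraries lay above all E8.5 libraries, and the Pdx1-Cre stages overlapped, with the highest value in E9.5 replicate 2. The change from E8.5 to E9.5 was 2.68 ± 0.85 (SE) on the log2 scale and was not called (adjusted p = 0.0674, edgeR). It was called with RLE scaling (3.29, adjusted p = 0.0172), with mature arms alone (2.79, adjusted p = 0.041), with at least 10 counts in every library (2.62, adjusted p = 0.00866) and by DESeq2 (3.29, adjusted p = 2.88e-05), and also without E9.5 replicate 1 (2.99, adjusted p = 0.0177), E9.5 replicate 3 (2.86, adjusted p = 0.0392) or E10.5 replicate 1 (3.03, adjusted p = 0.0426). From E8.5 to E11.5 it was 2.00 ± 0.83 (adjusted p = 0.128, edgeR), and the later steps were -0.94 ± 0.81 and 0.26 ± 0.80.

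The ratio of miR-125b-5p to let-7a-5p and let-7c-5p together did not differ detectably between stages. The log2 means, in order of stage, were -3.94 ± 0.86 (SD), -4.38 ± 1.47, -3.34 ± 0.63 and -4.44 ± 0.15 (exact permutation p = 0.471, adjusted 0.471). Here 2.97, 15.5 and 2.37 reads per 100 of let-7 in the E9.5 libraries spanned nearly the whole range of the 12. Without E9.5 replicate 2, the highest of them, the exact permutation p was 0.0494 and the adjusted p also 0.0494.

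**Figure D4:**
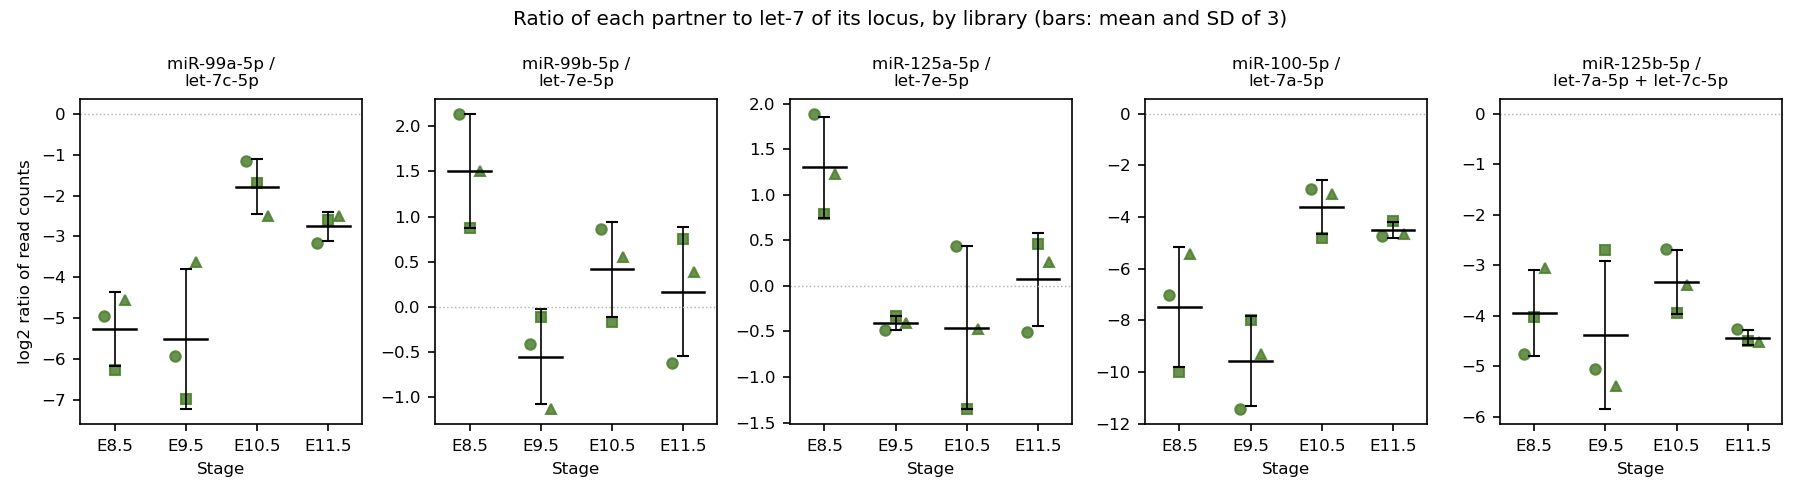
Log2 ratio of the reads of each partner to those of let-7 of its locus (0.5 counts added to each) in each library by stage; points are libraries, bars are the mean and SD of 3, and the dotted line marks equal reads. The miR-99b-5p and miR-125a-5p ratios were highest at E8.5, whereas those of miR-99a-5p and miR-100-5p were higher in every E10.5 and E11.5 library than in every earlier one.

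Counted over comparisons, 13 of the 15 entries passed the filter on low counts and no member was called lower in any comparison. From E8.5 to E9.5, 1 of the 5 main arms was called higher, beside 4.03% of all 571 entries called higher and 1.58% called lower, and 2 of the 5 had every E9.5 library above every E8.5 library, beside 6.83% of all entries. From E9.5 to E10.5, 0 of the 13 tested members were called by edgeR (1.58% of all entries called higher, 2.8% lower). An unadjusted p under 0.05 (edgeR) was found for 5 members, beside 104 of all 571 entries. DESeq2 called 1 member and limma voom 0, beside 63 and 1 of all entries. In this step 2 of the 5 main arms lay above without overlap, beside 8.76% of all entries. From E10.5 to E11.5, edgeR called 0 of the 13 members (0% of all entries higher, 0.35% lower), and 2 had an unadjusted p under 0.05, beside 61 of all 571 entries. DESeq2 called 0 members and limma voom 1, beside 8 and 3 of all entries. Of the 5 main arms, 2 lay above without overlap, beside 9.81%.

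Over the longer intervals more main arms were called. From E9.5 to E11.5, 2 of the 5 were called higher (1.23% of all entries higher, 3.33% lower) and 3 lay above without overlap (16.6%). From E8.5 to E11.5, 3 of the 5 were called higher (5.25% of all entries higher, 6.3% lower) and all 5 lay above without overlap (17.3%). Of the 13 members tested in that comparison, edgeR called 3, DESeq2 7 and limma voom 10, beside 66, 94 and 147 of all 571 entries. Both DESeq2 and limma voom called all 5 main arms. From E9.5 to E11.5 the members called by these tools were 2, 2 and 0, beside 26, 56 and 6 of all entries. These were miR-99b-5p and miR-125a-5p by edgeR, but miR-99b-5p and miR-100-5p by DESeq2. From E8.5 to E9.5 they were 1, 2 and 0, beside 32, 70 and 17. The median log2 fold change of the 5 main arms from E8.5 to E11.5 was 2.37, beside -0.07 over all entries. For the steps from E8.5 to E9.5, E9.5 to E10.5 and E10.5 to E11.5 it was 0.62, 1.09 and 0.54, beside -0.84, 0.17 and 0.07 over all entries. With RLE scaling the medians over all entries became -0.21, -0.29 and -0.15. All of these comparisons share libraries.

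**Figure D5:**
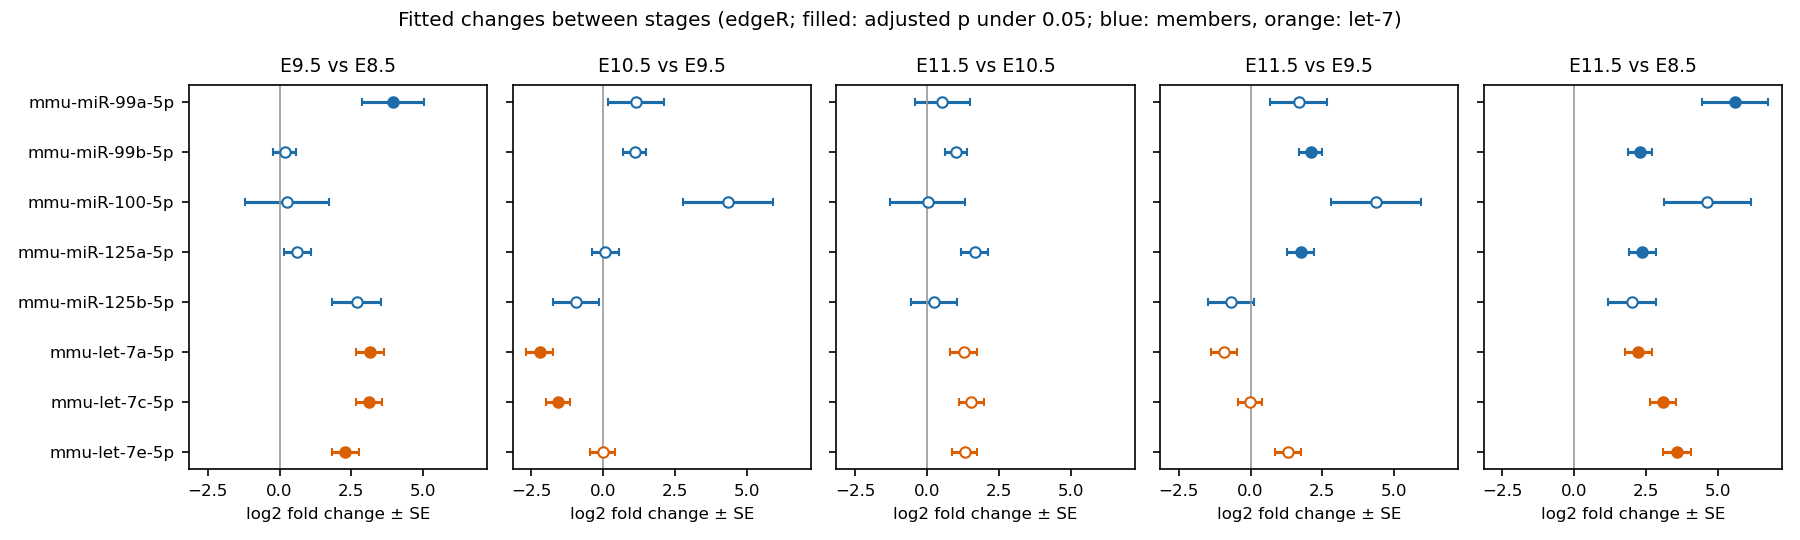
Log2 fold change with its SE for the 5 main arms (blue) and the let-7 arms of their loci (orange) in 5 comparisons of stages, from 1 edgeR fit over 12 libraries; filled points had an adjusted p under 0.05. No blue point to the left of 0 was filled, and let-7a-5p and let-7c-5p were called higher from E8.5 to E9.5 and lower from E9.5 to E10.5.

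Together the 5 main arms made up their largest share of all miRNA reads at E11.5. They made up 0.872%, 0.71% and 0.609% of all counts in the E8.5 libraries, 0.9%, 1.12% and 1.06% at E9.5, 2.08%, 0.925% and 1.75% at E10.5, and 3.1%, 3.81% and 3.91% at E11.5. Every E11.5 library lay above all others, and E10.5 replicate 2 lay within the E9.5 range. By seed, miR-99a-5p, miR-99b-5p and miR-100-5p together made up 0.376% ± 0.0834 (SD, n = 3), 0.416% ± 0.0352, 1.01% ± 0.306 and 1.94% ± 0.356 of all counts at the 4 stages. miR-125a-5p and miR-125b-5p together made up 0.354% ± 0.0531, 0.609% ± 0.134, 0.578% ± 0.301 and 1.67% ± 0.112.

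The chromosome 17 arms had the largest mean shares of the members' reads at every stage. Among the 5 members, miR-99b-5p made up 50.2% ± 2.54 (SD, n = 3) of reads at E8.5 and 45.9% ± 3.61 at E11.5, and miR-125a-5p 43.7% ± 2.72 and 42.9% ± 2.81. miR-99a-5p made up 0.711% ± 0.398 at E8.5 and 6.07% ± 0.671 at E11.5. miR-125b-5p had its largest mean share at E9.5, 19.3% ± 16.5, where 1 library reached 38.3%.

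miR-351-5p, an X-linked miRNA with the miR-125 seed, stood at 3220 ± 377, 1478 ± 776, 2231 ± 680 and 2469 ± 688 CPM (SD, n = 3) in order of stage, with an adjusted p of 0.279 or more (edgeR) in each of the 5 comparisons. At E8.5 its mean was above that of miR-125a-5p, and at E11.5 it was well below. miR-99b-3p, the passenger arm of mir-99b, stood at 56.0 ± 23.7 CPM at E8.5 and 327 ± 183 at E11.5 (log2 fold change 2.54 ± 1.69 SE, adjusted p = 0.475, edgeR), and made up 1.75% ± 0.922 and 1.86% ± 0.80 of both arms at these stages.

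The remaining 3p arms were sparse and often came from single libraries. miR-125a-3p was counted 85, 0 and 2 times at E8.5, 0 times in all E9.5 libraries, 123, 0 and 2 times at E10.5 and 6, 253 and 60 times at E11.5. miR-125b-1-3p, which marks the chromosome 9 copy of mir-125b, was counted once at E8.5, not at all at E9.5, 56, 0 and 129 times at E10.5 and 32, 48 and 135 times at E11.5. Its change was not called by edgeR from E9.5 to E10.5 (adjusted p = 0.136), from E9.5 to E11.5 (adjusted p = 0.214) or from E8.5 to E11.5 (6.78 ± 2.48 SE on the log2 scale, adjusted p = 0.0796), and DESeq2 and limma voom called the last of these (7.03, adjusted p = 0.0204, and 5.88, adjusted p = 0.0134). miR-125b-2-3p, which marks the chromosome 16 copy, had 21 counts in E8.5 replicate 2 and 102 in E11.5 replicate 2 and none elsewhere, and was too sparse to be tested. These passenger arms are therefore too few to say which copy supplied miR-125b-5p.

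Precursor entries held short reads like the mature ones, since reads were limited to 17 to 35 or 36 bases, so they do not measure the hairpin itself. edgeR called no precursor of the members in any comparison. From E8.5 to E11.5, DESeq2 called mir-125b-2 (5.23 on the log2 scale, adjusted p = 0.00732), and limma voom called mir-125b-2 (5.08, adjusted p = 0.00623), mir-99a (4.96, adjusted p = 0.0255), mir-125a (4.80, adjusted p = 0.01) and mir-99b (2.48, adjusted p = 0.0376), all higher at E11.5. In this comparison DESeq2 called 94 and limma voom 147 of all 571 entries. The entry for mir-99b held 89, 220 and 40 counts at E8.5, 2, 87 and 6 at E9.5, 35, 42 and 199 at E10.5 and 451, 980 and 608 at E11.5. The entry for mir-125b-2 held 1 to 4 counts in each library up to E10.5 and 77, 146 and 96 at E11.5. mir-125a held 86, 4 and 2 counts at E8.5, 3 to 5 in each E9.5 library, 8, 37 and 38 at E10.5, and 187, 969 and 236 at E11.5. mir-99a held at most 2 counts in each library up to E10.5 replicate 2, then 70 in E10.5 replicate 3 and 39, 41 and 174 at E11.5. mir-125b-1 held at most 3 counts in each of the 6 earliest libraries, and 57, 135 and 58 in E10.5 replicate 3 and E11.5 replicates 2 and 3. mir-100 held 30 counts in all, of which 28 were from E11.5, and was not tested. Among the let-7 precursors of the same loci, let-7a-2 was called lower from E9.5 to E10.5 (-6.84 ± 1.84 SE on the log2 scale, adjusted p = 0.0314, edgeR). It held 5, 63 and 144 counts at E9.5 and 2, 0 and 7 at E10.5. The let-7a-1 entry of chromosome 13 held nearly the same counts in some libraries, such as 144 in E9.5 replicate 3. In E11.5 replicate 2 the let-7a-1 and let-7a-2 entries held 144 and 139. In others the entries differed, with 1 and 63 in E9.5 replicate 2. Whether the let-7a-2 reads come from the chromosome 9 hairpin alone cannot be told from these counts. let-7c-1 (-4.76 ± 1.44, adjusted p = 0.0616, edgeR) and let-7e (0.46 ± 2.09, adjusted p = 0.911, edgeR) were not called in that step.

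Of the 9 main arms of the wider let-7 family, edgeR called 5 higher from E8.5 to E9.5, 4 lower from E9.5 to E10.5 and 4 higher from E8.5 to E11.5. From E9.5 to E10.5 limma voom called 1 of all 571 entries, so it called at most 1 of these falls. From E9.5 to E11.5, where miR-99b-5p and miR-125a-5p were called higher, 1 let-7 arm was called lower. miR-10a-5p and miR-10b-5p, relatives whose seed, ACCCUGU, differs from the ACCCGUA of miR-99 and miR-100, were both called lower from E8.5 to E9.5 and from E8.5 to E11.5. The list of let-7 arms had a median log2 fold change of 3.16, -2.21 and 1.31 over the adjacent steps.

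The arms whose levels ran most like the members' were in part epithelial markers. Over the 12 libraries, and with the members themselves left out, 86 mature arms had at least 10 counts in each library. Of these, miR-125a-5p was most like miR-200c-3p (Spearman rho 0.92), miR-429-3p (0.86) and miR-411-5p (0.77). miR-99b-5p was most like miR-429-3p (0.82), miR-7b-5p (0.82) and let-7e-5p (0.78). Arms sparse at the early stages, such as the mesenchymal miR-214-3p with 5 counts in all at E8.5, could not enter this list. miR-99a-5p was most like miR-24-3p (0.88), miR-205-5p (0.85) and miR-429-3p (0.85), and miR-100-5p like miR-183-5p (0.75), miR-429-3p (0.74) and miR-379-5p (0.69). miR-125b-5p was most like miR-23b-3p (0.78), miR-203-3p (0.76) and let-7c-5p (0.74), and its rho with miR-99b-5p was 0.19. Between members, miR-99b-5p had a rho of 0.84 with miR-125a-5p and of 0.71 with miR-100-5p. The libraries share stage and depth, so these values describe likeness of course and nothing more.

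Markers of other cells were set beside the members because these are bulk samples, in which more cells of a type and more RNA per cell cannot be told apart. The epithelial sum ranged from 25300 to 29300 CPM at E8.5 and from 65900 to 102000 at E11.5, with all 6 markers counted. Between these stages it was thus higher at E11.5, as all 5 main arms were. At E10.5 it ranged from 71000 to 98800 CPM, within the E11.5 range. Every E11.5 library of miR-99b-5p and miR-125a-5p, in contrast, lay above those of E10.5. The largest epithelial marker, miR-375-3p, had 29436, 4514, 40368 and 127069 unscaled counts in order of stage. Mesenchymal markers (miR-143, miR-145a, miR-199 and miR-214) summed to 7290 to 13700 CPM at E8.5 and 4310 to 9250 at E11.5, which overlapped, and to 1660 to 8600 and 3600 to 13500 in the stages between. That sum covers unlike courses. In unscaled counts per stage, miR-214-3p had 5, 5, 159 and 1183 and miR-199a-5p 0, 5, 153 and 414. Both were thus scarce at E8.5 and E9.5, as miR-100-5p was. The largest, miR-143-3p, had 14248, 276, 4122 and 9677, and miR-145a-5p 104, 1, 1 and 32. For miR-199a-3p they were 1191, 175, 963 and 1559, and for miR-199b-3p 1000, 173, 843 and 1516. Depth differed between stages, and 3 counts over a whole stage stood for 1.81, 15.4, 4.72 and 1.27 CPM in order of stage. Unscaled counts therefore do not give the course of a level, and an E9.5 count stands for more CPM than an equal count elsewhere. Neural markers summed to 996 to 1970 CPM at E8.5 and 864 to 948 at E11.5, and endothelial markers to 1820 to 2280 and 34.2 to 423, so both sums were lower at E11.5. Not every marker was: unscaled counts at E8.5 and E11.5 were 159 and 281 for miR-9-5p and 158 and 277 for miR-126a-5p. They were 1939 and 1875 for miR-128-3p, 215 and 1 for miR-124-3p, 95 and 0 for miR-9-3p, and 3310 and 515 for miR-126a-3p. The liver miRNA miR-122-5p, at 463 to 593 CPM at E8.5 and 43100 to 70000 at E11.5, was also higher at E11.5 than at E8.5. It ranged from 38800 to 91200 CPM at E9.5 and from 71700 to 131000 at E10.5, where every library lay above those of E11.5. Unlike miR-99b-5p and miR-125a-5p, it was thus not highest at E11.5. Leukocyte markers reached 2660 CPM at E9.5 and at most 59.3 elsewhere, and the erythroid marker miR-451a at most 77.9 in any library. The part of these shifts in the members' changes was not tested.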

How the data were processed

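The authors deposited raw read counts per miRNA entry, with a column for each library. COMPSRA, as the study's methods describe, trimmed the adapter and 4 random bases, aligned reads with STAR to mm10 and counted mature and precursor entries, and the processing notes in the labels name mm10 and GRCm39. Per the file headers, reads of 17 to 35 bases (17 to 36 in 2 libraries) were kept. The random bases were not used to count molecules, so intervals and floors cover counting error only. Groups came from the sample labels, and all 12 columns matched a library name.

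Counts were tested in R 4.3.3 with edgeR 4.0.16 (glmQLFTest, TMM, filterByExpr with minimum count 10 and minimum total 15), all 12 libraries in 1 fit with stage as the factor, which left 571 entries. DESeq2 1.42.0, limma voom (limma 3.58.1), RLE scaling, library size alone, other filters, mature arms alone, the compared stages alone, a replicate term and leaving out each library were alternatives. Ratios of reads used an offset of 0.5 counts and an exact two-sided permutation test of the sum of squares between stages (15400 partitions, smallest p 6.49e-05, Python 3.11.15). The scripts were tested on simulated data. The members, loci, lists and tests were chosen with earlier results of these data known. Entries named in the text were all members, let-7 of the same loci, other carriers of a member's seed and the 3 arms most like each member by Spearman rho. Beside these stood lists set by name: the wider let-7 family, miR-10a-5p with miR-10b-5p, and the markers of cell types. Sequences came from RefSeq (GRCm38.p6) and gene positions from GENCODE vM21 (GRCm38, the mm10 assembly).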

Additional observations from a re-analysis of the deposited data

How the results depend on the processing

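Counts of called main arms moved with the processing. From E8.5 to E9.5, where 1 was called, 2 were called with RLE scaling, by DESeq2 and with mature arms alone, and 0 with library size alone, limma voom and the compared stages alone. From E9.5 to E10.5, DESeq2 called 1 in place of 0, and from E10.5 to E11.5 limma voom and the compared stages alone called 1 in place of 0. From E9.5 to E11.5, where 2 were called, 0 were called with RLE scaling, limma voom and the compared stages alone and 1 with at least 10 counts in every library. From E8.5 to E11.5, where 3 were called, DESeq2, limma voom and the compared stages alone called 5, and at least 10 counts in every library, which kept 3 of the 5 arms, called 2. Leaving out 1 library gave 0 to 2, 0 to 1, 0 to 1, 1 to 3 and 3 to 4 calls in these comparisons. The exact ratio tests without 1 library gave p = 0.0011 to 0.0259 (miR-99a-5p), 0.00675 to 0.0684 (miR-99b-5p), 0.0026 to 0.0903 (miR-125a-5p), 0.00149 to 0.0318 (miR-100-5p) and 0.0494 to 0.758 (miR-125b-5p), and with the Pdx1-Cre stages alone 0.214 for miR-99b-5p and 0.543 for miR-125a-5p. Uncalled changes that reversed were near 0: from E8.5 to E9.5, miR-99b-5p (-0.03 with library size alone, -0.01 to 0.57 without a library) and miR-100-5p (-0.02 with library size alone, -0.44 to 1.58 without a library). From E9.5 to E10.5, miR-125a-5p was -0.54 with RLE scaling and by DESeq2, -0.36 with at least 10 counts in every library, -0.19 with the compared stages alone, and -0.59 to 0.45 without a library. From E10.5 to E11.5, miR-100-5p was -0.13 with RLE scaling, -0.14 by DESeq2, -0.01 with mature arms or the compared stages alone, and -0.38 to 0.7 without a library. Except where the number of entries or samples differs by construction, the cause was not tested. Depth limited the low members at E9.5, where miR-100-5p had 0 to 3 counts in each library.

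Replicate numbers were shared between stages but did not pair the libraries: deviations of same-numbered libraries correlated at -0.134 to 0.125 over 18 pairs, and those of other pairs at -0.152 to 0.137. With a replicate block, 0 main arms were called from E8.5 to E9.5 and miR-100-5p was called from E8.5 to E11.5 (5.29, edgeR adjusted p = 0.0474). The exact permutation tests with the block gave p = 0.0608 for the ratio of miR-99b-5p, 0.0677 for miR-125a-5p and 0.0347 (adjusted 0.0846) for miR-100-5p.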
